A study of Mus musculus with 24 samples.

Results

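Granulocyte monocyte progenitors (GMP) were set against induced pluripotent stem (iPS) cells across all genes, as 12 of the 24 libraries of a series on cycling speed during reprogramming. All 8 GMP libraries of the count table, 5 labelled fast cycling and 3 labelled slow cycling, were compared with all 4 iPS libraries. The GMP had been cultured in the serum-free base medium X VIVO15 with cytokines that included mouse SCF at 100 ng/ml and mouse IL3 and Flt3L at 50 ng/ml each, and were sorted as fast or slow after 24 hours of dilution of the dye CFSE, which daughter cells share at each division. The iPS cells are described as factor independent, were grown without doxycycline in mouse embryonic stem cell medium with serum and LIF at 1000 U/ml, were sorted as a bulk Oct4:GFP+ population and carry the label fast cycling. The labels give no strain, age or parent cell for either cell type and no animal or culture for each replicate, so p-values measure only the spread between these samples, which may be technical. Cell type, medium, the CFSE step and sequencing depth differed together between the groups and cannot be told apart. In every library 1000 sorted cells gave cytosolic RNA, its polyadenylated part was copied with oligo-dT, and the authors deposited whole-number read counts per gene.

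GMP are the bone marrow progenitors of neutrophils and monocytes. The transcription factors PU.1 (gene Sfpi1) and C/EBPα open the myeloid programme in them, and they load the first neutrophil granules with proteases and myeloperoxidase. iPS cells are held in the pluripotent state by Oct4 (gene Pou5f1), Sox2 and Nanog, with LIF and Stat3 supporting them in the mouse. Mouse pluripotent cells are known for a short G1 phase.

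The GMP libraries were shallower and more variable than the iPS libraries. They held 2098846 to 4411526 counts each, against 5051170 to 18648132 in the iPS libraries. The ribosomal RNA gene Rn45s and the mitochondrial leucyl-tRNA synthetase gene Lars2 together took 19.9% to 48.9% of the counts in GMP libraries and 3.05% to 8.66% in iPS libraries, and were left out before scaling. Counts are given as CPM, reads scaled to library size after TMM normalization, which are not divided by gene length, so levels are compared within a gene and not between genes. The median correlation of a library with the others of its class was 0.540 to 0.675 in GMP and 0.884 to 0.911 in iPS cells. Genes with at least 1 count numbered 9378 to 14166 in 7 GMP libraries and 18400 in fast GMP replicate 1, against 14242 to 15325 in iPS libraries. By summed CPM, defining markers matched the labelled cell type in every library. The 18 genes of the primary granule list summed to 7139.6 to 31994 CPM per library in GMP and 1.62 to 5.52 CPM in iPS cells, and the 22 core pluripotency factors to 298 to 848 CPM in GMP and 5931 to 8333 CPM in iPS cells. Fast GMP replicate 1 had the lowest granule sum of the GMP libraries. It held counts for 19 of the 22 core pluripotency factors, against 11 to 17 in the other GMP libraries. In bulk samples such as these, fewer cells of a type and less RNA per cell cannot be told apart.

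Of 11308 genes tested, 1775 differed between GMP and iPS cells at an adjusted p under 0.05 (edgeR's quasi-likelihood test with Benjamini-Hochberg adjustment), which is 15.7% of the genes tested. Of these, 1111 (9.82% of the genes tested) were higher and 664 (5.87%) lower in GMP, and log2 fold changes below are GMP over iPS with the standard error of the fit. Genes whose 8 GMP and 4 iPS libraries did not overlap numbered 740 (6.54%) with GMP above and 998 (8.83%) with GMP below. The median log2 fold change of all genes tested was 0.31. Of the genes called higher, 101 had no count in any iPS library, and 14 of those called lower had no count in any GMP library. The smallest called difference was 1.29 on the log2 scale, and on simulated counts for this comparison the test called 0 of 48 genes changed 4-fold, 3 of 45 changed 8-fold and 11 of 48 changed 16-fold. Power in the real comparison, where many genes differ, is another matter, but a gene that misses the threshold is not shown to be alike in the groups. Without any 1 iPS library, 928 to 947 genes were called, whereas without any 1 GMP library 1618 to 1965 were. The split also depended on the test, since limma voom with quality weights called 1777 genes higher and 2498 lower. Counts thinned to the smallest library, 1560718 counts each, gave 1098 genes higher and 554 lower.

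Transcripts for proteins of the primary neutrophil granules were higher in GMP. These granules form at the promyelocyte stage and carry the serine proteases neutrophil elastase (Elane), proteinase 3 (Prtn3) and cathepsin G (Ctsg) together with myeloperoxidase (Mpo), which makes hypochlorous acid. Of 17 tested members of the primary granule list, 15 were higher in GMP and 0 lower, against 9.82% of all genes called higher. The list median was 11 on the log2 scale. The list also holds genes whose products are not stored granule proteins, such as Ms4a3, Alox5, Clec12a and Igsf6. The 300 bases around the RefSeq transcription start (250 before it and 50 after, build GRCm38.p6) of Mpo, Elane, Prtn3 and Ctsg are shown because these genes rose together. Utf1, which encodes a chromatin protein of pluripotent cells and fell in GMP, is shown beside them. Capitals mark GAGGAA, core letters bound by PU.1 and related Ets factors, and its longer form GAGGAAGT. Both were searched on both strands, they overlap, and the longer one was counted after the sequences had been seen. The Mpo window is chr11:87793534-87793833, plus strand, the Elane window chr10:79886062-79886361, plus strand, the Prtn3 window chr10:79879417-79879716, plus strand, the Ctsg window chr14:56102525-56102824, minus strand, and the Utf1 window chr7:139943606-139943905, plus strand.
Mpo: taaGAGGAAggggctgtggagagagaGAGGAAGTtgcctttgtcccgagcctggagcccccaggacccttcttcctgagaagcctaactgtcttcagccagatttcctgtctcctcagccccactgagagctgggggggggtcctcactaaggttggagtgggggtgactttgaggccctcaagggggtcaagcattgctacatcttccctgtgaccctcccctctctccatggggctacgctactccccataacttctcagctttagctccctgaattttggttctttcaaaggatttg
Elane: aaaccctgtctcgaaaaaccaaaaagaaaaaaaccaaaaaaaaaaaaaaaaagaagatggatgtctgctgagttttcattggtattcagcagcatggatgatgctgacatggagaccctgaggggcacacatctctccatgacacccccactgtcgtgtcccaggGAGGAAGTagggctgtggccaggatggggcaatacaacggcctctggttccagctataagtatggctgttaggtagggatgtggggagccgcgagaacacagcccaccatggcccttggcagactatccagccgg
Prtn3: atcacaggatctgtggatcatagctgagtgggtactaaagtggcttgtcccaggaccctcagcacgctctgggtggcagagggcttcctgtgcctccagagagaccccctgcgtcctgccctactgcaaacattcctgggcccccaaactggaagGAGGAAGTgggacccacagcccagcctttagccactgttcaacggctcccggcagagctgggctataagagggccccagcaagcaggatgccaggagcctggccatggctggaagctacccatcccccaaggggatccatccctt
Ctsg: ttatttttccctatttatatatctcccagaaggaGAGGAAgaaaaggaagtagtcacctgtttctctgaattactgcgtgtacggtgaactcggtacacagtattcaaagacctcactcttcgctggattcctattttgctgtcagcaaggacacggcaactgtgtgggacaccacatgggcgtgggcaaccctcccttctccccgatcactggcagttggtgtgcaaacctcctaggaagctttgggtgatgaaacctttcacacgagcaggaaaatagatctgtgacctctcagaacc
Utf1: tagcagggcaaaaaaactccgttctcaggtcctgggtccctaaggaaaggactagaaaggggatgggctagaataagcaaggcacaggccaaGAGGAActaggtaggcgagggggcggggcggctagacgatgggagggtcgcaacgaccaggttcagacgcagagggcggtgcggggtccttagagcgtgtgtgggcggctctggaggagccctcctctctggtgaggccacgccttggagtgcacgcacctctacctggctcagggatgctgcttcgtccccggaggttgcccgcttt

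The core GAGGAA stood in 10 of 15 promoters of the primary granule list with an entry in the RefSeq table (66.7%), against 8446 of 27025 genes (31.3%). These 10 include Ms4a3, Alox5, Clec12a and Igsf6, whose products are not stored granule proteins. The core also stood in 8 of 23 promoters of myeloid factors (34.8%), in 2 of 17 of core pluripotency factors (11.8%) and in 8 of 19 of other pluripotency genes (42.1%). Its longer form GAGGAAGT stood in 4 of those 15 (26.7%), against 997 of 27025 genes (3.69%), and in 1 of 23 promoters of myeloid factors, 0 of 17 of core pluripotency factors and 1 of 19 of other pluripotency genes. The 4 granule genes were Mpo at 224 bases before the start, Elane at 85, Prtn3 at 95 and Ctsc, which encodes the protease that activates the granule serine proteases, at 151. Elane and Prtn3 lie close together on chromosome 10, and whether their matches are independent was not tested. The letters TTGCNNAA, a C/EBP half-site pair, stood in 4 of 15 promoters of the granule list (26.7%), 5 of 23 of myeloid factors (21.7%), 3 of 17 of core pluripotency factors (17.6%) and 1 of 19 of other pluripotency genes (5.26%), and in 12.2% of all genes. The octamer ATGCAAAT, read by Oct factors, stood in 2 of 17 core pluripotency promoters (11.8%), those of Zfp42 and Zfp296, 2 of 19 of other pluripotency genes (10.5%), 1 of 15 promoters of the granule list (6.67%) and 1 of 23 of myeloid factors (4.35%), and in 1.97% of all genes. These are matches of letters within a window and show no binding.

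Myeloperoxidase led the group by its p-value. Mpo lay between 4039.8 and 24765 CPM (median 14010.0) in GMP, against 0.647, 1.21, 1.65 and 1.3 CPM in iPS cells. The groups were far apart, with a log2 fold change of 13.48 ± 0.92 (adjusted p = 7.87e-07). Elane lay between 637 and 2524 CPM (median 1259) in GMP, against 0, 0.279, 0 and 0 CPM in iPS cells, a log2 fold change of 13.87 ± 1.26 (adjusted p = 7.98e-06). Ctsg lay between 218 and 1878 CPM (median 567) in GMP, against 0, 0, 0.0531 and 0 CPM in iPS cells, a log2 fold change of 14.04 ± 1.25 (adjusted p = 7.07e-06). Prtn3, the target of the autoantibodies of granulomatosis with polyangiitis in human, lay between 451 and 2179.7 CPM (median 969) in GMP and at 0, 0.186, 0.318 and 0.173 CPM in iPS cells, a log2 fold change of 12.37 ± 0.97 (adjusted p = 2.32e-06). Every GMP library exceeded every iPS library for these 4 genes, fast and slow gates alike. Ms4a3, a membrane protein by which the descendants of GMP are traced in the mouse, averaged 981 ± 649 CPM in GMP and 0.114 ± 0.176 CPM in iPS cells (SD, n = 8 and 4), with a log2 fold change of 12.60 ± 1.23. Lysozyme M (Lyz2), whose promoter drives a much used myeloid Cre, averaged 820.1 ± 470.3 CPM in GMP and 0.106 ± 0.212 CPM in iPS cells, with a log2 fold change of 12.39 ± 1.34. Cst7, the inhibitor of lysosomal cysteine proteases cystatin F, had no count in any iPS library and was at least 2047-fold higher in GMP against a floor of 3 counts over the iPS group. Without iPS replicate 3, the deepest iPS library, that floor rises, and this bound and every other one against 0 iPS counts falls to 60.2% of its value. Prss57 and Alox5 were the 2 tested members that missed the threshold. The 5-lipoxygenase gene Alox5 lay between 0 and 63 CPM (median 9.33) in GMP and at 0.162, 1.77, 1.01 and 0.346 CPM in iPS cells, and the groups overlapped. Values of genes at or near 0 in iPS cells depend on which of those libraries holds the few counts. Without iPS replicate 2 the log2 fold change of Elane was 15.67, and without iPS replicate 3 those of Ms4a3 and Lyz2 were 13.87 and 14.70.

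**Figure D1:**
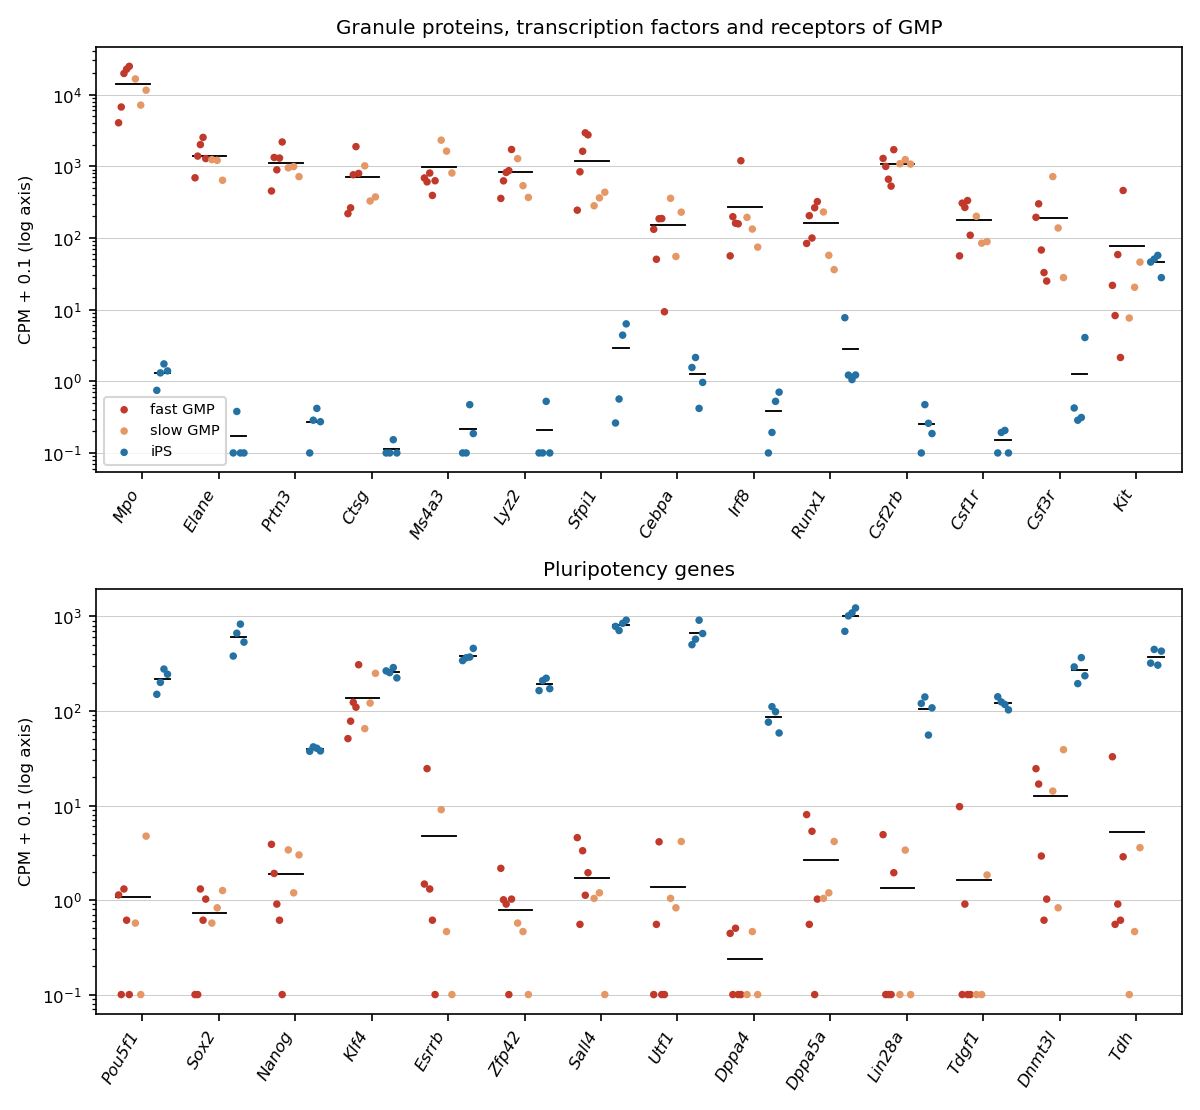
CPM plus 0.1 on a log axis in each fast GMP, slow GMP and iPS library (points, 5, 3 and 4 libraries) with the mean of all GMP and of iPS libraries (bars), for genes of the myeloid and of the pluripotent state. Mpo, Elane, Prtn3 and Ctsg stand above every iPS library in all 8 GMP libraries, Sox2 and Sall4 below every iPS library, while Kit and Klf4 overlap between the groups.

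Genes of later neutrophil stages were higher in GMP as well. Of 18 listed secondary granule and maturation genes, 17 were in the table and 11 passed the filter on low counts. Of those 11, 9 were higher (81.8%, against 9.82% of all genes tested) and 0 lower in GMP. Their median log2 fold change was 7.85. Of the 17, 7 had no count in any iPS library. Genes near 0 in iPS cells pass that filter only through GMP. This partly sets the direction of this list and of the other lists of blood cell genes. The collagenase gene Mmp8 lay between 19.6 and 114 CPM (median 41.9) in GMP and had no count in iPS cells, which puts it at least 826-fold higher. Lipocalin 2 (Lcn2), which withholds iron from bacteria, lay between 5.64 and 62.6 CPM (median 15.5) in GMP, again with no iPS count, and was at least 358-fold higher. The lactoferrin gene Ltf and the cathelicidin gene Camp, markers of secondary granules named after their values were seen, averaged 17.4 ± 41 and 10.3 ± 21.6 CPM in GMP and 0.0349 ± 0.0425 and 0 CPM in iPS cells but did not pass the filter, so they were not tested. The chemokine receptor gene Cxcr2 lay between 2.01 and 64.3 CPM (median 20.4) in GMP and at 3.07, 5.03, 6.64 and 7.52 CPM in iPS cells, and did not pass the test.

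All 17 tested genes of monocytes and macrophages were higher in GMP (100%, against 9.82% of all genes tested). Their median log2 fold change was 8.45. Of the 18 listed, 7 had no count in any iPS library. Ly6c2, which encodes the monocyte surface antigen Ly6C, lay between 268 and 554 CPM (median 426) in GMP with no count in iPS cells and was at least 6755-fold higher; its copy Ly6c1 is nearly identical, so its reads may be shared. Csf1r, the receptor for macrophage colony-stimulating factor, lay between 56.1 and 332 CPM (median 155) in GMP, against 0, 0.0931, 0.106 and 0 CPM in iPS cells, a log2 fold change of 11.13 ± 1.18 (adjusted p = 2.68e-05). The coagulation factor gene F13a1, a known transcript of monocytes, lay between 64.3 and 356 CPM (median 122) in GMP and at 0, 0, 0.0531 and 0 CPM in iPS cells, a log2 fold change of 12.06 ± 1.18. For each of the 3 the lowest GMP library stood above the highest iPS library.

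The transcription factors that direct myeloid fate followed. Of 26 tested members, 20 were higher (76.9%, against 9.82% of all genes tested) and 0 lower in GMP. The list median was 6.24 on the log2 scale. Sfpi1, which encodes PU.1, lay between 244 and 2923 CPM (median 635) in GMP, against 0.162, 0.465, 4.3 and 6.22 CPM in iPS cells, a log2 fold change of 8.70 ± 1.38 (adjusted p = 0.000643). Cebpa, which GMP need in order to form, lay between 9.23 and 357 CPM (median 158) in GMP, against 1.46, 2.05, 0.318 and 0.864 CPM in iPS cells, a log2 fold change of 6.99 ± 1.15 (adjusted p = 0.000835). Irf8, a factor of the monocyte branch, lay between 56.1 and 1193 CPM (median 159) in GMP, against 0, 0.0931, 0.425 and 0.605 CPM in iPS cells, with a log2 fold change of 9.72 ± 1.40. Runx1, needed for blood formation in the embryo, had a log2 fold change of 5.91 ± 1.04. The groups did not overlap for these 4 genes. Cebpe and Gfi1, which act in granulocyte maturation, were low in some libraries of each kind. Cebpe lay between 2.9 and 1719 CPM (median 92.9) in GMP and at 0, 1.12, 5.89 and 0.0864 CPM in iPS cells, and Gfi1 between 1.85 and 62.2 CPM (median 9.1) in GMP and at 0, 0, 0.955 and 0 CPM in iPS cells, and the groups overlapped for Cebpe. Myb, which sustains progenitor growth, lay between 10.4 and 366 CPM (median 19.6) in GMP and at 4.69, 4, 6.53 and 5.62 CPM in iPS cells. Lyl1, a blood factor related to Tal1, had a log2 fold change of 11.04 ± 1.44. Etv6, an Ets repressor needed by blood stem cells, missed the threshold, with between 22.1 and 283 CPM (median 120.3) in GMP and 56.8, 19.4, 62.3 and 27 CPM in iPS cells.

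Several of these values rest on single libraries. The log2 fold change of Irf8 was 8.73 and that of Lyl1 10.32 without fast GMP replicate 5. Myb had a log2 fold change of 3.67 ± 1.16 with all libraries and 2.16 (adjusted p = 0.0635) without fast GMP replicate 5, and missed the threshold also without fast GMP replicate 2 or any iPS library. Cebpe, at 8.02 ± 2.07 with all libraries, was 7.31 without fast GMP replicate 4 and 10.01 without iPS replicate 3, and missed the threshold without each other iPS library. Gfi1, at 5.63 ± 1.63, was 4.68 without slow GMP replicate 2 and 8.83 without iPS replicate 3, and likewise missed it without each other iPS library. Sfpi1 and Lyl1 were 9.36 and 11.79 without iPS replicate 4, and Runx1 7.15 without iPS replicate 1.

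Most tested receptor genes for cytokines that act on blood cells were higher in GMP. Of 13 receptor genes tested, 10 were higher (76.9%, against 9.82% of all genes tested) and 0 lower in GMP. Csf2rb, the signalling chain shared by the receptors for IL3, IL5 and GM-CSF, lay between 527 and 1703 CPM (median 1076) in GMP, against 0, 0.372, 0.159 and 0.0864 CPM in iPS cells, a log2 fold change of 12.49 ± 0.96 (adjusted p = 2.32e-06). Its mouse paralog Csf2rb2, specific for IL3 and close enough in sequence that reads may be shared, had a log2 fold change of 11.18 ± 1.42. Il3ra, the IL3 binding chain, lay between 19.9 and 1086 CPM (median 58.1) in GMP and at 2.27, 55.7, 10.4 and 6.65 CPM in iPS cells, a log2 fold change of 3.39 ± 1.34 (adjusted p = 0.0985) with overlapping groups. Kit, the receptor for SCF and also a transcript of germ and pluripotent cells, lay between 2.05 and 459 CPM (median 21) in GMP and at 46, 50.5, 57 and 27.8 CPM in iPS cells. The 4 iPS libraries stood within the GMP range, and the log2 fold change of Kit was 0.77 ± 1.14 (adjusted p = 0.697). Flt3, the receptor for Flt3 ligand, averaged 4.62 ± 9.31 CPM in GMP and 0.0931 ± 0.186 CPM in iPS cells, and did not pass the filter. Csf3r, the receptor for G-CSF, lay between 24.9 and 717 CPM (median 103) in GMP and at 0.324, 0.186, 0.212 and 3.97 CPM in iPS cells, with a log2 fold change of 7.28 ± 1.51. That value was 6.54 without slow GMP replicate 1 and 9.41 without iPS replicate 4, and that of Csf2rb2 was 11.94 without iPS replicate 4.

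Genes that leukocytes share were higher in GMP with 1 exception. Of 32 leukocyte adhesion and signalling genes, 31 were higher (96.9%, against 9.82% of all genes tested) and 0 lower in GMP. The list median was 6.91 on the log2 scale. Arhgdib, an inhibitor of small GTPases in blood cells, lay between 554 and 1508 CPM (median 793) in GMP, against 6.47, 5.49, 3.08 and 7.34 CPM in iPS cells, a log2 fold change of 7.34 ± 0.65 (adjusted p = 6.14e-06). Tyrobp, the adaptor DAP12 of activating receptors, lay between 81.5 and 305 CPM (median 168) in GMP, against 0, 0.186, 0.0531 and 0.173 CPM in iPS cells, a log2 fold change of 10.40 ± 0.98. Ptprc, the common leukocyte antigen CD45, lay between 31 and 358 CPM (median 123) in GMP, against 0, 0, 0.106 and 0 CPM in iPS cells, a log2 fold change of 11.42 ± 1.29. Hcls1, an actin regulator of blood cells, had a log2 fold change of 12.65 ± 1.25. None of the 4 overlapped between the groups, and Ptprc was 12.34 without iPS replicate 3. Inpp5d, the phosphatase SHIP1, was the member that missed the threshold, with between 61.6 and 551 CPM (median 165) in GMP and 57.3, 138, 165 and 189.9 CPM in iPS cells. All 5 subunits of the phagocyte oxidase, which makes superoxide against microbes, were higher in GMP (100%, against 9.82% of all genes tested). Its membrane subunit gene Cyba lay between 2407 and 23808 CPM (median 4612) in GMP, against 123, 194, 80.5 and 108 CPM in iPS cells, a log2 fold change of 5.80 ± 0.79, and 5.21 without slow GMP replicate 1. The cytosolic subunit genes Ncf1 and Ncf4 had log2 fold changes of 9.17 ± 1.24 and 9.53 ± 1.24, and of 10.13 and 10.23 without iPS replicate 4.

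Genes of antigen presentation were higher in GMP. Class I molecules display cytosolic peptides on most body cells, and pluripotent cells are known to carry little of them. Of 10 class I genes tested, 7 were higher (70%, against 9.82% of all genes tested) and 0 lower in GMP. The list median was 5.13 on the log2 scale. B2m, the light chain that every class I molecule needs, lay between 157 and 354 CPM (median 288) in GMP, against 2.75, 2.23, 1.86 and 6.05 CPM in iPS cells, a log2 fold change of 6.41 ± 0.70 (adjusted p = 3.48e-05). The heavy chain gene H2-D1 lay between 777 and 2029 CPM (median 1276) in GMP, against 25.2, 19.8, 11.8 and 48 CPM in iPS cells, a log2 fold change of 5.66 ± 0.64; class I heavy chains resemble each other, so their reads may be shared. Psmb8, a catalytic subunit of the immunoproteasome, lay between 91.8 and 462 CPM (median 156) in GMP, against 0.324, 0.558, 0.212 and 0.173 CPM in iPS cells, a log2 fold change of 9.28 ± 0.97. No GMP library reached down to an iPS library for these 3 genes. Tapbp, which edits the bound peptide, lay between 134 and 1739 CPM (median 365) in GMP and at 118, 172, 457 and 245 CPM in iPS cells, and did not pass the test. Interferon response genes, which share regulators with class I, had 0 of 8 tested members called in either direction by edgeR, with 10 listed members below the filter and a median of 1.08. At most 1 was called without any 1 library. At an unadjusted p under 0.05 there were 2, and DESeq2 and voom each called 2 higher and 0 lower. Stat2, a transducer of type I interferon, had between 14.8 and 363 CPM (median 24.7) in GMP and 1.62, 6.24, 14.5 and 8.64 CPM in iPS cells, without overlap, and an adjusted p of 0.0553.

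Class II genes, which present extracellular antigen on dendritic cells, B cells and macrophages, were in every GMP library. H2-Aa lay between 226 and 3026 CPM (median 522) in GMP, against 0, 0, 0.159 and 0 CPM in iPS cells, a log2 fold change of 13.43 ± 1.47 (adjusted p = 3.61e-05), which was 12.75 without slow GMP replicate 1 and 14.72 without iPS replicate 3. The invariant chain gene Cd74, named here after its values were seen, lay between 2037 and 4076 CPM (median 3597) in GMP, against 28.3, 1.77, 1.22 and 0 CPM in iPS cells. The groups did not overlap for H2-Aa, nor for Cd74. The 11 listed dendritic markers, class II included, summed to 3460.1 to 9026 CPM per library in GMP and 12 to 35.1 CPM in iPS cells. Of the 7 that passed the filter on low counts, 6 were called higher (85.7%, against 9.82% of all genes tested) and 0 lower in GMP. The median log2 fold change of the 7 was 8.67, and 4 to 6 were higher without any 1 library. Markers near 0 in iPS cells pass that filter only through GMP, which partly sets this direction. The 6 were Cd74, H2-Aa, H2-Ab1, H2-Eb1, Xcr1 and Itgax, the first 4 being class II genes. Of the 4 below the filter, 3 were named after their values were seen. Siglech averaged 0.086 ± 0.243 CPM, Clec9a averaged 0.371 ± 0.754 CPM and Batf3 4.74 ± 6.82 CPM in GMP (SD, n = 8), and their part in the class II levels was not tested.

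**Figure D2:**
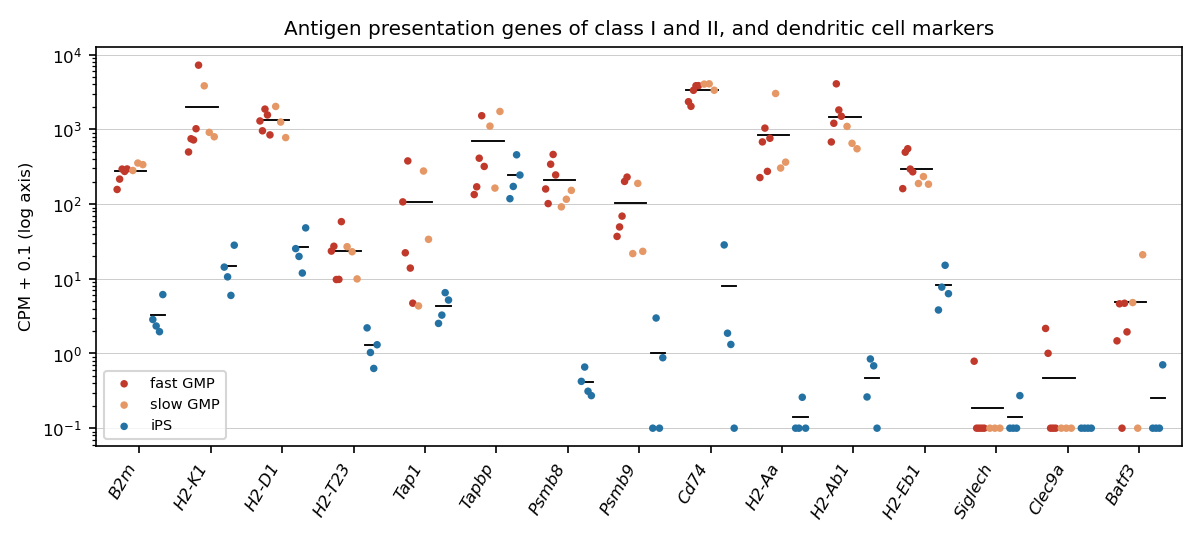
CPM plus 0.1 on a log axis in each fast GMP, slow GMP and iPS library (points, 5, 3 and 4 libraries) with group means (bars), with class I genes on the left, then 4 class II genes, then 3 dendritic cell markers. B2m, H2-D1, Psmb8, Cd74 and H2-Aa stand above every iPS library in all 8 GMP libraries, Tapbp overlaps, and Siglech and Clec9a lie at or near 0 in most libraries.

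Marker lists of other cell types were summed in each library. Mast cell and basophil markers summed to 10.2 to 241 CPM per GMP library and 1.62 to 9.4 CPM per iPS library, with Fcer1a and Cma1 at 0 in 7 of 8 GMP libraries and in all 4 iPS libraries. Markers near 0 in iPS cells pass the filter on low counts only through GMP, which partly sets the direction of those tested. Of the 4 mast cell and basophil markers that passed the filter, 2 were higher (50%, against 9.82% of all genes tested) and 0 lower in GMP. The median log2 fold change of the 4 was 5.73. The 2 higher ones were the protease genes Cpa3 and Mcpt8, named because the count is small, and 0 were called without slow GMP replicate 1 or 2 or any 1 iPS library. Megakaryocyte markers summed to 12.1 to 339 CPM in GMP and 7.28 to 27.6 CPM in iPS cells, and eosinophil markers to 4.09 to 138 CPM in GMP and 2.68 to 64.1 CPM in iPS cells. Erythroid markers summed to 1.02 to 151 CPM in GMP and 13.1 to 161 CPM in iPS cells, with all 4 listed globin genes at 0 in both groups. Lymphoid markers summed to 1.61 to 159 CPM in GMP and 29.9 to 131 CPM in iPS cells, and stem and multipotent progenitor markers to 9.67 to 123 CPM in GMP and 82.5 to 93.6 CPM in iPS cells. Fibroblast markers summed to 136 to 685 CPM in GMP and 426 to 1317 CPM in iPS cells, and germ layer and trophoblast markers to 7.25 to 498 CPM in GMP and 85.3 to 131 CPM in iPS cells. Of 3 eosinophil markers tested, Il5ra was called higher and Siglec5 lower in GMP (33.3% each, against 9.82% and 5.87% of all genes tested). Il5ra was not called without iPS replicate 1, 3 or 4, nor Siglec5 without fast GMP replicate 2 or iPS replicate 3. Ctnnal1 was lower among 3 stem and progenitor markers (33.3%, against 5.87% of all genes tested). Fn1 and Acta2 were lower among 14 fibroblast markers (14.3%). Of those 14, 0 to 2 were called when 1 library was left out, and 0 without iPS replicate 1. By edgeR 0 of 1 erythroid, 3 megakaryocyte, 4 lymphoid and 7 germ layer and trophoblast markers were called. At an unadjusted p under 0.05 there were 2 lymphoid and 1 germ layer and trophoblast markers. DESeq2 called 0 of those 4 lists, and voom called 1 erythroid, 2 lymphoid and 4 germ layer and trophoblast markers lower. The part of these cell types in the results was not tested.

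Genes of the pluripotent state were lower in GMP almost throughout. Of 22 core transcription factors, all tested, 19 were lower and 0 higher in GMP, against 5.87% of all genes called lower, with a median log2 fold change of -5.60. Sox2 lay between 0 and 1.21 CPM (median 0.62) in GMP, against 381, 665, 829 and 535 CPM in iPS cells, a log2 fold change of -9.91 ± 0.80 (adjusted p = 2.68e-06). Pou5f1, which encodes Oct4 and whose reporter was the iPS sorting gate, lay between 0 and 4.64 CPM (median 0.491) in GMP, against 150.0, 200.4, 278 and 245 CPM in iPS cells, a log2 fold change of -7.78 ± 1.0. Since the gate selected on it, its level is a description. Nanog lay between 0 and 3.78 CPM (median 1.45) in GMP, against 37.4, 41.6, 40.2 and 37.7 CPM in iPS cells, a log2 fold change of -4.42 ± 0.81 (adjusted p = 0.00187). The groups did not overlap for any of the 3. Sall4, a partner of Oct4, had a log2 fold change of -8.91 ± 0.78, Zfp42, the marker Rex1, -8.03 ± 0.82, and Utf1 -8.98 ± 1.01. Esrrb, a nuclear receptor of naive pluripotency, averaged 4.61 ± 8.55 CPM in GMP and 384 ± 51.8 CPM in iPS cells, a log2 fold change of -6.36 ± 1.17. Without fast GMP replicate 2 the value of Esrrb was -7.71, and without slow GMP replicate 3 that of Pou5f1 was -8.69.

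Klf4 and Myc, the other reprogramming factors, did not separate the groups. Klf4 lay between 50.9 and 308 CPM (median 115) in GMP and at 265, 254, 288 and 224 CPM in iPS cells, a log2 fold change of -0.90 ± 0.55 (adjusted p = 0.297), and its GMP libraries ranged up to the iPS level. Myc lay between 12.9 and 184 CPM (median 51.5) in GMP and at 65.5, 142, 159 and 58.7 CPM in iPS cells, a log2 fold change of -0.77 ± 0.69 (adjusted p = 0.494). The related Mycn lay between 0 and 45.6 CPM (median 2.98) in GMP and at 96.9, 92.7, 80.2 and 108 CPM in iPS cells, a log2 fold change of -2.61 ± 1.05 (adjusted p = 0.106), without overlap between the groups. Over the 12 tested genes of the Myc network 0 were called in either direction by edgeR, and at most 1 in each direction without any 1 library. At an unadjusted p under 0.05 there were 3, DESeq2 called 2 higher and 1 lower, and voom called 1 higher and 2 lower.

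Among other genes tied to pluripotency, 24 of 29 tested were lower (82.8%, against 5.87% of all genes tested) and 0 higher in GMP. The list median was -5.89 on the log2 scale. The Dppa genes are known from early embryos. Dppa5a lay between 0 and 7.91 CPM (median 1.02) in GMP, against 696, 1014, 1090.3 and 1229.9 CPM in iPS cells, a log2 fold change of -8.56 ± 0.90 (adjusted p = 2.64e-05), and Dppa4 lay between 0 and 0.403 CPM (median 0) in GMP, against 76.1, 111, 98.1 and 58.4 CPM in iPS cells, a log2 fold change of -8.85 ± 0.89. Gdf3, a Tgf-beta ligand, had a log2 fold change of -7.33 ± 0.73, and Tdgf1, the Nodal co-receptor Cripto, -6.22 ± 1.23, which was -8.27 without fast GMP replicate 1. Lin28a, which blocks let-7 processing, averaged 1.24 ± 1.89 CPM in GMP and 106 ± 36.3 CPM in iPS cells, a log2 fold change of -6.35 ± 1.17, which was -7.10 without fast GMP replicate 1. Mkrn1, an RNA-binding ubiquitin ligase, lay between 10.7 and 481 CPM (median 35.2) in GMP and at 448, 507, 697 and 594 CPM in iPS cells and missed the threshold.

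**Figure D3:**
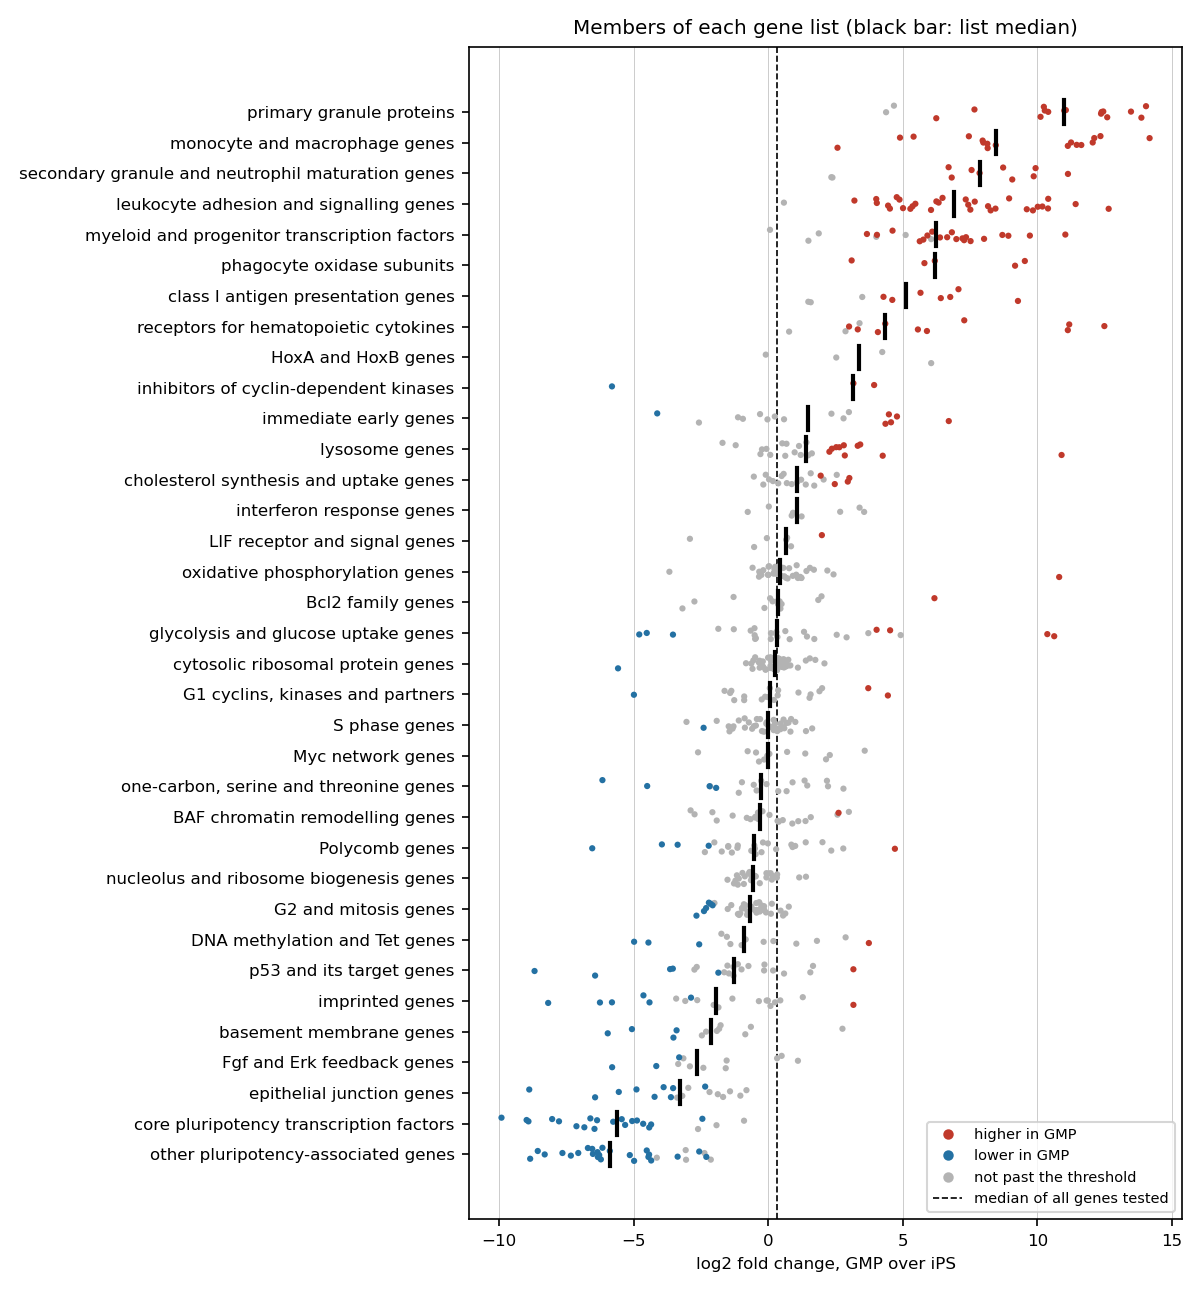
Log2 fold change, GMP over iPS, of each tested member of 35 gene lists (points, coloured by call) with the list median (black bar) and the median of all genes tested, 0.31 (dashed line). Myeloid lists lie to the right with medians up to 11, pluripotency lists to the left with medians of -5.60 and -5.89, and the S phase, Myc network and ribosomal protein lists have medians of 0.00, 0.00 and 0.27.

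Epithelial features of the iPS cells were lower in GMP as well. Pluripotent mouse cells form epithelial colonies, whereas GMP grow in suspension. Of 18 tested junction genes, 9 were lower (50%, against 5.87% of all genes tested) and 0 higher in GMP. The tight junction gene Cldn4 lay between 0 and 1.03 CPM (median 0) in GMP, against 157, 81.9, 107 and 114 CPM in iPS cells, a log2 fold change of -8.88 ± 1.0, and the desmosomal cadherin gene Dsg2 had -5.55 ± 1.20. E-cadherin (Cdh1) lay between 0.471 and 31 CPM (median 2.69) in GMP, against 139, 76, 69 and 65.8 CPM in iPS cells, a log2 fold change of -3.62 ± 0.95 (adjusted p = 0.0178), and did not overlap between the groups. Epcam lay between 0 and 14.5 CPM (median 0.923) in GMP and at 40.1, 35, 50.6 and 25.2 CPM in iPS cells without overlap, and had an adjusted p of 0.0752. Without fast GMP replicate 1, the values were -10.21 for Cldn4, -6.59 for Dsg2 and -4.55 for Cdh1, and Cdh1 missed the threshold without iPS replicate 1 (adjusted p = 0.0617). Of 12 basement membrane genes, 4 were lower (33.3%, against 5.87% of all genes tested) and 0 higher in GMP. Sparc, a collagen-binding matrix protein, lay between 45.1 and 758 CPM (median 88.3) in GMP, against 1816, 1577, 1915 and 1617 CPM in iPS cells, a log2 fold change of -3.41 ± 0.70. The nidogen genes Nid1 and Nid2, which link laminin to collagen IV, had log2 fold changes of -5.07 ± 0.74 and -5.96 ± 1.22. Sparc was -4.42 without slow GMP replicate 3, and Nid1 and Nid2 were -5.88 and -7.56 without fast GMP replicate 1. Hspg2, which encodes perlecan, lay between 0.923 and 250.5 CPM (median 3.09) in GMP and at 84.6, 265, 187 and 261 CPM in iPS cells and missed the threshold.

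Genes of LIF signalling and of Fgf and Erk feedback were mixed. The LIF receptor genes did not separate the groups: Lifr lay between 0.512 and 26.1 CPM (median 2.59) in GMP and at 8.41, 8.19, 8.07 and 6.91 CPM in iPS cells, and Il6st, which encodes the shared chain gp130, lay between 3.48 and 33.9 CPM (median 24.3) in GMP and at 26.5, 30.4, 38.9 and 33.4 CPM in iPS cells. Stat3, the transcription factor that LIF and G-CSF both activate, was higher in GMP. It lay between 254 and 1434 CPM (median 503) in GMP, against 179, 168, 114 and 192 CPM in iPS cells, a log2 fold change of 1.99 ± 0.58 (adjusted p = 0.0278), and missed the threshold without any 1 iPS library. Of 12 tested Fgf and Erk feedback genes, 3 were lower (25%, against 5.87% of all genes tested) and 0 higher in GMP. Etv5, an Ets factor induced by Erk, lay between 0 and 17.5 CPM (median 8.51) in GMP, against 533, 535, 500.3 and 498 CPM in iPS cells, a log2 fold change of -5.80 ± 0.91 (adjusted p = 0.000573). The Erk inhibitor genes Spred2 and Spry1 had log2 fold changes of -3.31 ± 0.80 and -4.16 ± 1.18. Spry1 was -7.70 without fast GMP replicate 2 and missed the threshold without any 1 iPS library, and without fast GMP replicate 1 the list had 5 lower members.

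Genes of DNA replication were called less often than all genes tested, while the few mitotic genes that passed the test were lower in GMP. Of 41 S phase genes, 1 was lower (2.44%, against 5.87% of all genes tested) and 0 higher in GMP (against 9.82%), with a median log2 fold change of 0.00. Of 40 genes of G2 and mitosis, 6 were lower (15%) and 0 higher, with a median of -0.69. Pcna, the sliding clamp of DNA polymerase, lay between 144 and 569 CPM (median 223) in GMP and at 169, 179, 198 and 196 CPM in iPS cells, a log2 fold change of 0.45 ± 0.51 (adjusted p = 0.596). Mki67, the proliferation antigen, lay between 21.2 and 141 CPM (median 71.5) in GMP and at 45.6, 81.7, 79.9 and 60.8 CPM in iPS cells, and the iPS values stood within the GMP range. Top2a, which untangles replicated DNA, lay between 116 and 494 CPM (median 208) in GMP and at 318, 244, 439 and 312 CPM in iPS cells. Pola1, the catalytic subunit of the primase-bound polymerase, was the S phase gene called lower, at -2.40 ± 0.69, and missed the threshold without any 1 iPS library. The 6 mitotic genes called lower were Cenpf, Aurka, Ttk, Ccnb1, Ccnf and Kif23, the last 3 named because the count is small. Cenpf, a kinetochore protein, lay between 2.56 and 28.6 CPM (median 9.95) in GMP, against 70.7, 106, 73.9 and 88 CPM in iPS cells, a log2 fold change of -2.67 ± 0.66 (adjusted p = 0.0131). The spindle kinase gene Aurka lay between 13.3 and 94.1 CPM (median 21.8) in GMP, against 249, 174, 233 and 137 CPM in iPS cells, a log2 fold change of -2.31 ± 0.63, and the checkpoint kinase gene Ttk had -2.21 ± 0.61. Aurka missed the threshold without iPS replicate 1 or 3, and Ttk without any 1 iPS library. With fast GMP only, Pola1 was -1.91 (adjusted p = 0.0698 by edgeR) and Cenpf -2.19 (adjusted p = 0.053), and both missed the threshold. With slow GMP only they were -3.33 and -3.55 and passed it. Ttk went the other way, passing with fast GMP only at -2.21 and missing with slow GMP only at -2.02. The mitotic count was 1 or 2 without any 1 iPS library, and the S phase count went up to 4 without fast GMP replicate 4. Summed over all 40 mitotic genes, libraries held 1649.7 to 2677 CPM in GMP and 3999 to 4719 CPM in iPS cells, which do not overlap, and over the 41 S phase genes 2245 to 13511 CPM in GMP and 6094 to 7159 CPM in iPS cells.

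**Figure D4:**
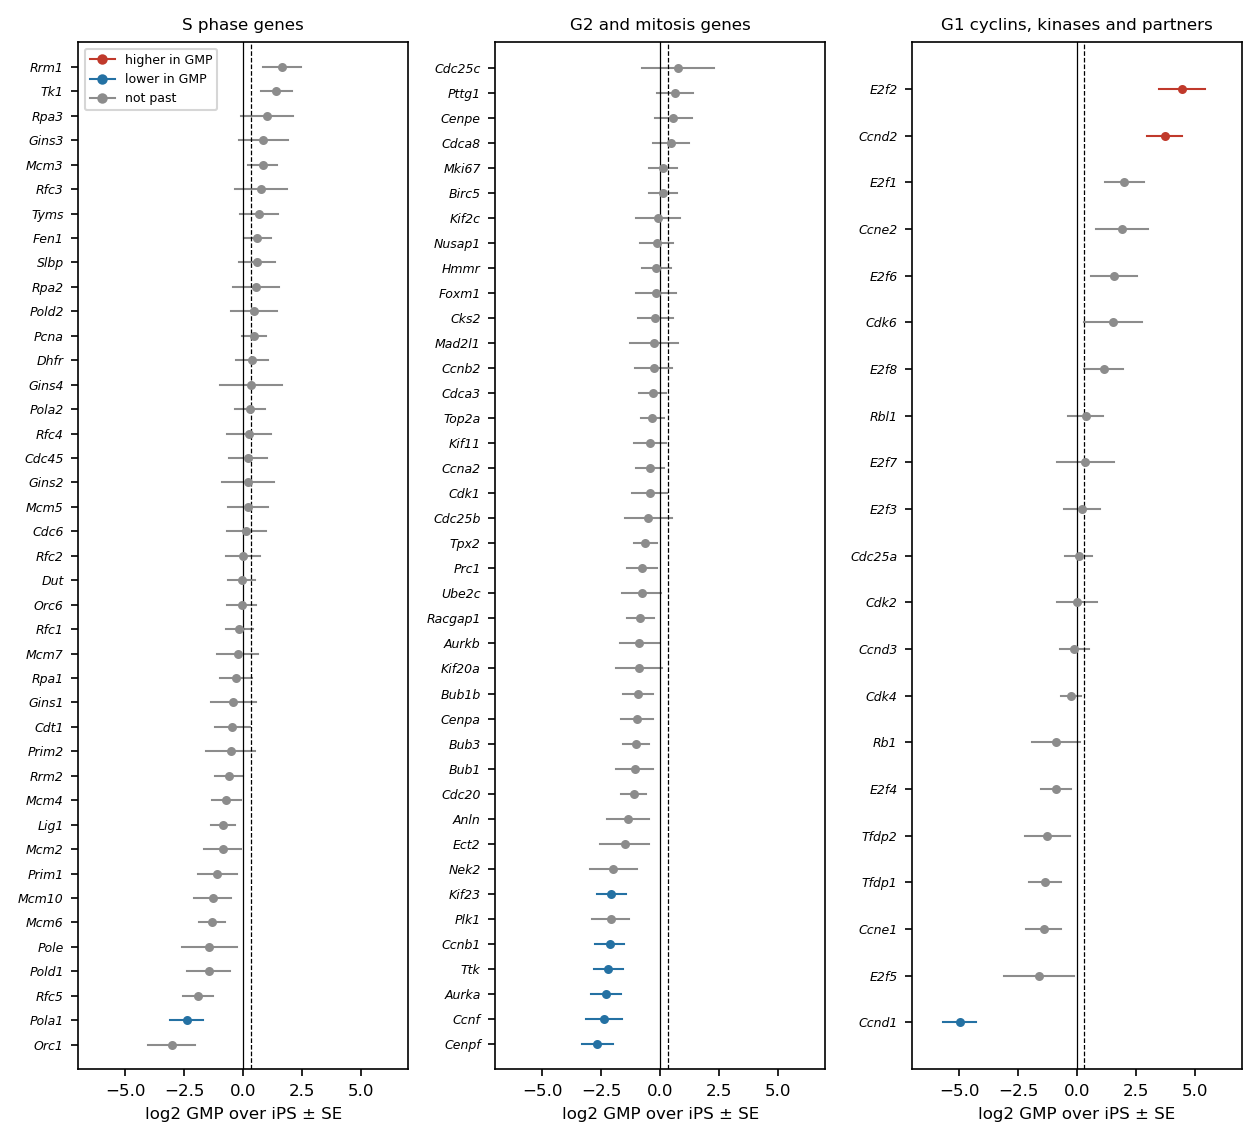
Log2 fold change, GMP over iPS, with its standard error for each tested gene of S phase, of G2 and mitosis, and of the G1 cyclins with their kinases and partners (solid line at 0, dashed line at the median of all genes tested). Ccnd1 lies at -4.99 and Ccnd2 at 3.72 in the same panel, E2f2 at 4.45, and 6 mitotic genes lie past the threshold on the left.

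The D-type cyclins, which carry growth signals to Cdk4 and Cdk6 in G1, differed by member. Ccnd1 lay between 1.41 and 27.3 CPM (median 7.49) in GMP, against 337, 265, 286 and 353 CPM in iPS cells, a log2 fold change of -4.99 ± 0.69 (adjusted p = 0.000225). Ccnd2 lay between 95.5 and 1069 CPM (median 447) in GMP, against 29.9, 46.2, 48.5 and 16.4 CPM in iPS cells, a log2 fold change of 3.72 ± 0.74 (adjusted p = 0.00331). Ccnd3 lay between 143 and 1497 CPM (median 320.0) in GMP and at 428, 492, 471 and 466 CPM in iPS cells, a log2 fold change of -0.12 ± 0.61 (adjusted p = 0.922). Thus every GMP library was below every iPS library for Ccnd1 and above every one for Ccnd2, and the groups overlapped for Ccnd3. The directions of Ccnd1 and Ccnd2 held under every scaling tried. Cdk4 lay between 245 and 536 CPM (median 367) in GMP and at 483, 440.4, 423 and 390.1 CPM in iPS cells, and did not pass the test. E2f2, a transcription factor of the G1 to S step, lay between 64.9 and 432 CPM (median 95.6) in GMP, against 11.3, 2.42, 1.22 and 16.1 CPM in iPS cells, a log2 fold change of 4.45 ± 0.99 (adjusted p = 0.00667). Ccne1, which drives entry into S phase, lay between 4.61 and 606 CPM (median 127) in GMP and at 731, 447, 473 and 292 CPM in iPS cells, and missed the threshold with an adjusted p of 0.217.

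Inhibitors of cyclin-dependent kinases differed in direction too. Cdkn1a, which encodes p21, lay between 414 and 6172 CPM (median 1125) in GMP, against 176, 184, 210.5 and 174 CPM in iPS cells, a log2 fold change of 3.16 ± 0.78 (adjusted p = 0.0124). Cdkn1b, which encodes p27, lay between 2.05 and 29.9 CPM (median 4.03) in GMP, against 0.162, 1.3, 0.265 and 0.691 CPM in iPS cells, a log2 fold change of 3.93 ± 1.23 (adjusted p = 0.04). Cdkn1c, the imprinted inhibitor p57, lay between 0 and 0.906 CPM (median 0) in GMP, against 15.7, 14.3, 12 and 26.4 CPM in iPS cells, a log2 fold change of -5.81 ± 1.06 (adjusted p = 0.00176). The groups did not overlap for any of the 3. Cdkn1a was 2.44 without fast GMP replicate 4, and Cdkn1a and Cdkn1b missed the threshold without any 1 iPS library. The list had 1 higher member without fast GMP replicate 1 or 2 or slow GMP replicate 2 or 3. The other 4 members did not pass the filter on low counts. Trp53, the tumour suppressor that induces p21, lay between 92.3 and 854 CPM (median 314) in GMP, against 1326, 1400.3, 1406 and 1056 CPM in iPS cells, a log2 fold change of -1.85 ± 0.50 (adjusted p = 0.0207), and missed the threshold without iPS replicate 1, 2 or 3. Of 22 tested genes of the p53 list, 1 was higher, Cdkn1a (4.55%, against 9.82% of all genes tested), and 5 were lower in GMP (22.7%, against 5.87%). Eda2r, a death receptor gene, had no count in any GMP library and was at least 54.8-fold lower in GMP. The stress gene Gadd45a had a log2 fold change of -3.55 ± 0.91, and of -4.15 without fast GMP replicate 1, and missed the threshold without iPS replicate 3 or 4. Perp, which p53 induces and which sits in desmosomes, had -6.43 ± 1.19, and -10.06 without that library. The list had 2 or 3 lower members without any 1 iPS library. Of 14 tested Bcl2 family genes, 1 was higher (7.14%, against 9.82% of all genes tested) and 0 lower in GMP. That gene was Bcl2, which lay between 0.941 and 19.3 CPM (median 9.14) in GMP, against 0.162, 0.186, 0.106 and 0 CPM in iPS cells, a log2 fold change of 6.18 ± 1.25. Up to 2 members of the Bcl2 family list were called lower without 1 GMP library. The related gene Bcl2l1, which also blocks apoptosis, lay between 12.2 and 1271 CPM (median 109) in GMP and at 279, 233, 338 and 96.7 CPM in iPS cells.

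Few genes of ribosome production were called. Of 29 nucleolar and ribosome biogenesis genes 0 were called by edgeR, with a median log2 fold change of -0.57. At an unadjusted p under 0.05 there were 3, DESeq2 called 1 lower and 0 higher, and voom called 8 lower and 0 higher. Npm1, which encodes nucleophosmin, lay between 487 and 3183 CPM (median 1328) in GMP and at 1388, 2025, 3336 and 2951 CPM in iPS cells. Of 50 tested ribosomal protein genes, 1 was lower (2%, against 5.87% of all genes tested) and 0 higher in GMP, with a median of 0.27. That gene was Rpl39l, a paralog of Rpl39 known from testis and pluripotent cells, which lay between 0 and 1.38 CPM (median 0) in GMP, against 9.06, 7.73, 13.7 and 13 CPM in iPS cells, a log2 fold change of -5.58 ± 1.15, and -8.93 without fast GMP replicate 1. Ribosomal protein genes have many processed pseudogenes, so reads may be split among copies. Rps2, a protein of the small subunit, lay between 3835 and 19702 CPM (median 7831) in GMP and at 8002, 9066, 11225 and 7742 CPM in iPS cells.

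Of 28 tested glycolysis and glucose uptake genes, 4 were higher (14.3%, against 9.82% of all genes tested) and 3 lower in GMP (10.7%, against 5.87%), and the list median was 0.32 on the log2 scale. Hk3, a hexokinase of myeloid cells, lay between 111 and 1544 CPM (median 378) in GMP, against 0.324, 0.838, 0.0531 and 0 CPM in iPS cells, a log2 fold change of 10.63 ± 1.41 (adjusted p = 0.000171). The glucose carrier gene Slc2a6, known from leukocytes, lay between 18.4 and 729.8 CPM (median 86.7) in GMP, against 0, 0, 0.106 and 0.259 CPM in iPS cells, a log2 fold change of 10.37 ± 1.55. Conversely, the carrier gene Slc2a1 lay between 30.8 and 712 CPM (median 241) in GMP, against 2618, 3401, 3911 and 3586 CPM in iPS cells, a log2 fold change of -3.54 ± 0.72 (adjusted p = 0.0038). Slc2a3, another carrier, and the lactate dehydrogenase B gene Ldhb, both named after their values were seen, had log2 fold changes of -4.51 ± 0.93 and -4.79 ± 1.01. For these 5 genes the groups did not overlap. The aldolase gene Aldoc had 4.03 ± 1.09, was 4.64 without iPS replicate 1 and missed the threshold without iPS replicate 2, 3 or 4. Hk3 was 11.87 without iPS replicate 2, and Slc2a6 was 9.41 without fast GMP replicate 3 and 11.07 without iPS replicate 4. The count of higher members was 2 without iPS replicate 2, 3 or 4. Pyruvate kinase M (Pkm2), of the last step of glycolysis, lay between 3074 and 17856 CPM (median 6257) in GMP and at 6661, 6981, 7577 and 5881 CPM in iPS cells, and the groups overlapped.

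**Figure D5:**
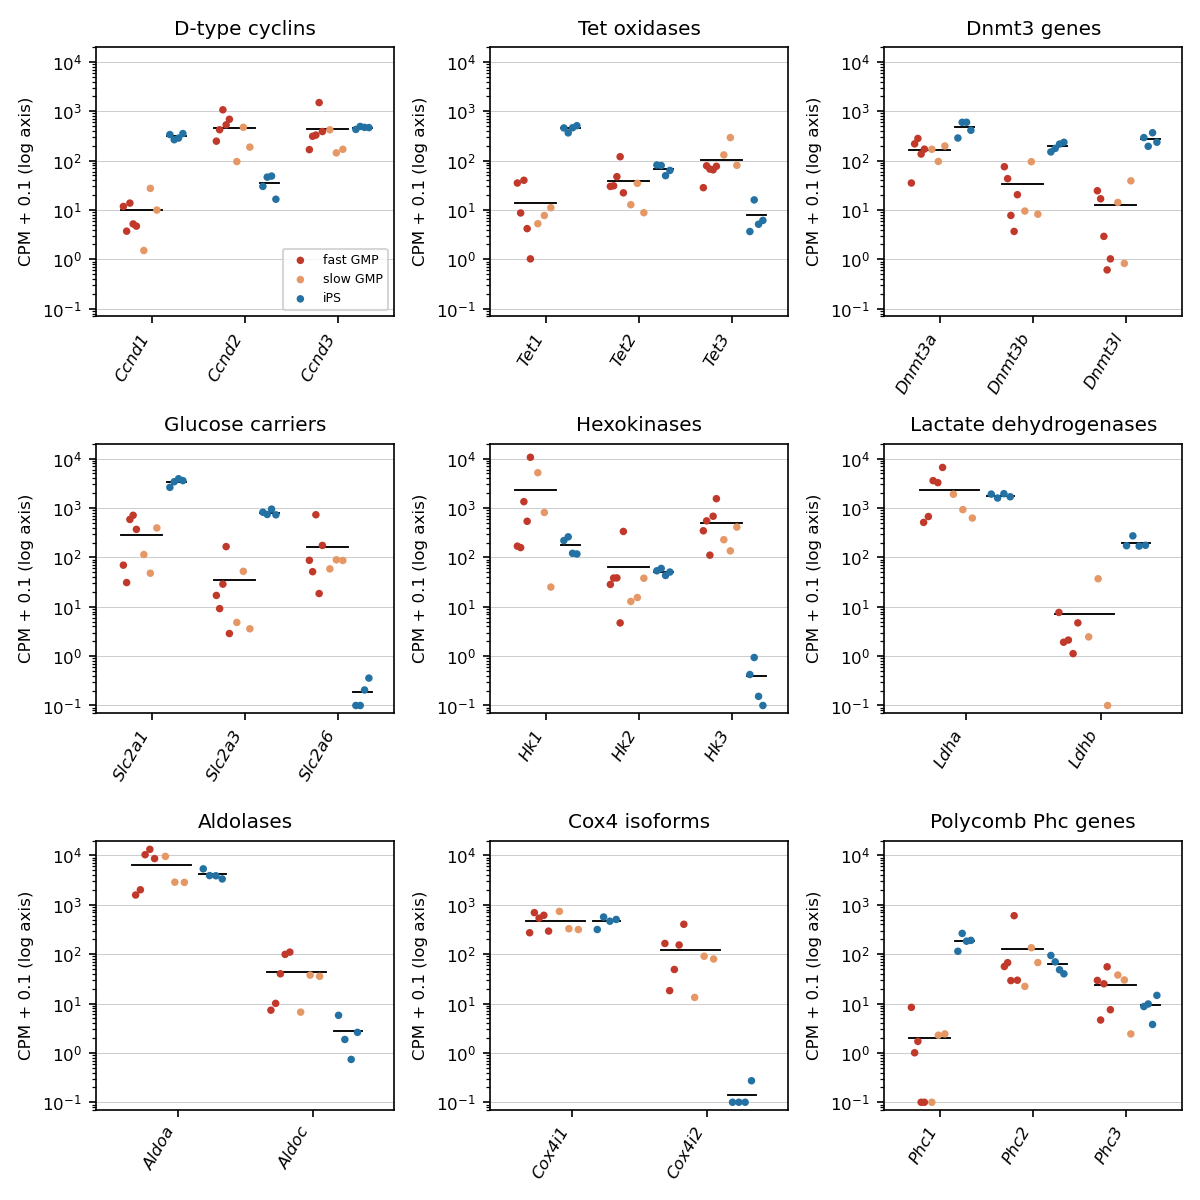
CPM plus 0.1 on a log axis in each fast GMP, slow GMP and iPS library (points, 5, 3 and 4 libraries) with group means (bars) for 9 gene families. Ccnd1 and Ccnd2 separate the groups in opposite directions while Ccnd3 overlaps, Tet1 and Tet3 do so while Tet2 overlaps, and Cox4i2 separates them while Cox4i1 overlaps.

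Respiratory chain genes nearly all missed the threshold, with 1 of 38 higher (2.63%, against 9.82% of all genes tested) and 0 lower in GMP. The exception was Cox4i2, the isoform of cytochrome oxidase subunit IV known from lung and from low oxygen. It lay between 13.2 and 402 CPM (median 85) in GMP, against 0, 0, 0 and 0.173 CPM in iPS cells, a log2 fold change of 10.81 ± 1.58 (adjusted p = 0.000343), which was 10.21 without fast GMP replicate 5 and 12.14 without iPS replicate 4. Its common isoform Cox4i1, named after its values were seen, lay between 271 and 734 CPM (median 430.3) in GMP and at 315, 564, 464 and 504 CPM in iPS cells, so the groups overlapped. One-carbon and amino acid genes had 4 of 19 tested lower (21.1%, against 5.87% of all genes tested) and 0 higher in GMP. Tdh, the threonine dehydrogenase on which mouse pluripotent cells are known to depend, lay between 0 and 32.7 CPM (median 0.659) in GMP, against 320.4, 448, 305 and 429 CPM in iPS cells, a log2 fold change of -6.16 ± 1.20 (adjusted p = 0.00273), and -8.32 without fast GMP replicate 1. Ahcy, which clears the by-product of methylation, lay between 59.6 and 209.9 CPM (median 172) in GMP, against 759.7, 706, 789 and 601 CPM in iPS cells, a log2 fold change of -2.18 ± 0.44. The glycine cleavage gene Gldc had -4.50 ± 1.23, and -5.66 without slow GMP replicate 3, and missed the threshold without iPS replicate 1 or 2. The list had 2 lower members without either of those 2 libraries.

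Of 21 tested cholesterol genes, 4 were higher (19%, against 9.82% of all genes tested) and 0 lower in GMP, with a median log2 fold change of 1.08. Cyp51, the lanosterol demethylase, lay between 53.7 and 649.7 CPM (median 226) in GMP, against 27.5, 32.6, 41.9 and 31.1 CPM in iPS cells, a log2 fold change of 2.95 ± 0.72 (adjusted p = 0.0117). Fdps, an enzyme of the earlier isoprenoid steps, lay between 339 and 1364 CPM (median 738) in GMP, against 208, 197, 196 and 182 CPM in iPS cells, a log2 fold change of 1.95 ± 0.53, and Sc4mol, of the later sterol steps, had 2.47 ± 0.63. The groups did not overlap for these 3, yet the list had 0 higher members without iPS replicate 1, 2 or 4 and 1 without iPS replicate 3. The GMP medium was serum-free and the iPS medium held serum, and their part in this was not tested.

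The lysosome list had 10 of 25 members higher (40%, against 9.82% of all genes tested) and 0 lower in GMP, and a median log2 fold change of 1.42. Cathepsin H (Ctsh) lay between 20.3 and 153 CPM (median 31.4) in GMP with no count in iPS cells and was at least 699.8-fold higher, or 454-fold without fast GMP replicate 4, which stood highest. Cathepsin Z (Ctsz) lay between 725 and 2597 CPM (median 1221) in GMP, against 63.4, 70.6, 66.8 and 102 CPM in iPS cells, a log2 fold change of 4.25 ± 0.59 (adjusted p = 0.000224). Prosaposin (Psap), the precursor of the saposins, lay between 736 and 3144 CPM (median 1957) in GMP, against 295, 196, 248 and 284 CPM in iPS cells, a log2 fold change of 2.81 ± 0.51. Cathepsin D (Ctsd) overlapped between the groups, with between 564 and 4297 CPM (median 1623) in GMP and 699.8, 722, 798 and 481 CPM in iPS cells. Without any 1 iPS library the list had 5 or 6 higher members.

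Among regulators of DNA methylation, the Tet genes were divided. Of 14 regulators tested, 1 was higher (7.14%, against 9.82% of all genes tested) and 3 were lower in GMP (21.4%, against 5.87%). Tet1, an oxidase of methylcytosine known from pluripotent cells, lay between 0.923 and 39.9 CPM (median 8.12) in GMP, against 458, 364, 462 and 510.3 CPM in iPS cells, a log2 fold change of -4.98 ± 0.78 (adjusted p = 0.000556). Tet3, of the same activity, lay between 28.2 and 293 CPM (median 77.5) in GMP, against 3.56, 15.9, 5.04 and 6.05 CPM in iPS cells, a log2 fold change of 3.74 ± 0.83 (adjusted p = 0.00667). Tet2, often mutated in human myeloid malignancy, lay between 8.7 and 119.7 CPM (median 30.4) in GMP and at 81.2, 79.5, 49.4 and 63.2 CPM in iPS cells, a log2 fold change of -0.84 ± 0.67 (adjusted p = 0.439). Tet1 and Tet3 thus separated the groups in opposite directions, and Tet2 overlapped. Dnmt3l, which helps the de novo methyltransferases, had a log2 fold change of -4.45 ± 0.96. The de novo enzyme gene Dnmt3b had -2.57 ± 0.79 (adjusted p = 0.0377) and missed the threshold without fast GMP replicate 2 or 3, slow GMP replicate 3 or any iPS library. Its sister gene Dnmt3a lay between 35.1 and 281 CPM (median 170.3) in GMP and at 287, 596, 598 and 411 CPM in iPS cells, without overlap, and had an adjusted p of 0.0546. Uhrf1, the guide of the maintenance enzyme, lay between 131 and 869.8 CPM (median 482) in GMP and at 974, 798, 869 and 1148 CPM in iPS cells and missed the threshold.

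Polycomb genes keep genes silent through histone marks. Of 29 tested, 4 were lower (13.8%, against 5.87% of all genes tested) and 1 higher in GMP (3.45%, against 9.82%). Phc1, a subunit of the first Polycomb complex, lay between 0 and 8.26 CPM (median 1.26) in GMP, against 114, 263, 183 and 189.6 CPM in iPS cells, a log2 fold change of -6.54 ± 1.02, and -7.41 without fast GMP replicate 1. Jarid2, which recruits the second complex, lay between 7.66 and 54.1 CPM (median 40.1) in GMP, against 363, 344, 391 and 411 CPM in iPS cells, a log2 fold change of -3.37 ± 0.54 (adjusted p = 0.000684). Pcgf2, a ring finger subunit, had -3.95 ± 1.14, was -5.26 without slow GMP replicate 1 and missed the threshold without any 1 iPS library. The list had 2 lower members without any 1 iPS library. Of 24 tested genes of the BAF remodelling complexes, 1 was higher (4.17%, against 9.82% of all genes tested) and 0 lower in GMP. That gene was Smarcc2 at 2.61 ± 0.82, whose groups overlapped and which missed the threshold without fast GMP replicate 4 or 5 or any 1 iPS library. The BAF list had 2 higher members without fast GMP replicate 3 or slow GMP replicate 1. The ATPase gene Smarca4 lay between 125 and 1375 CPM (median 577) in GMP and at 823, 1018, 819 and 692 CPM in iPS cells.

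Imprinted genes had 6 of 20 tested members lower (30%, against 5.87% of all genes tested) and 1 higher in GMP (5%, against 9.82%). Phlda2, a growth-restraining gene of the placenta, lay between 0 and 0.364 CPM (median 0) in GMP, against 20.4, 29.4, 15.7 and 25.6 CPM in iPS cells, a log2 fold change of -8.18 ± 1.06, and -10.00 without slow GMP replicate 2. Peg10, a retrotransposon-derived gene, had -6.25 ± 1.08. Kcnq1ot1, the long noncoding RNA of the Kcnq1 domain, lay between 44 and 789 CPM (median 215) in GMP, against 29.8, 34.2, 48.6 and 36.2 CPM in iPS cells, a log2 fold change of 3.16 ± 0.79 (adjusted p = 0.0139) with overlapping groups, and missed the threshold without iPS replicate 1, 2 or 4. It is antisense to Kcnq1, and the sources used here do not say whether counting used strand. H19 lay between 0.512 and 125 CPM (median 2.14) in GMP and at 208, 225, 197 and 124 CPM in iPS cells and missed the threshold. Slow GMP replicate 1 stood at 125 CPM and the other GMP libraries at 0.512 to 4.61 CPM. H19 passed as lower in 8 of 28 other settings, among them without that library, by DESeq2 and by voom. Its log2 fold change was -5.96 with fast GMP only (adjusted p = 0.000519 by edgeR) and -2.15 with slow GMP only (adjusted p = 0.32). The HoxA and HoxB lists had 4 of 21 members tested and 0 called by edgeR, at most 1 without any 1 library, with Hoxb3 at between 0 and 56.8 CPM (median 2.74) in GMP and 0.647, 0.186, 0 and 3.11 CPM in iPS cells. At an unadjusted p under 0.05 there was 1, and DESeq2 and voom each called 2 higher and 0 lower. Immediate early genes had 5 of 16 tested higher (31.2%, against 9.82% of all genes tested) and 1 lower in GMP (6.25%, against 5.87%). Klf6 lay between 296 and 2057 CPM (median 459) in GMP, against 28.2, 27.2, 22.4 and 53 CPM in iPS cells, a log2 fold change of 4.48 ± 0.76; Zfp36, which destabilises cytokine transcripts, had 4.36 ± 0.88 and Ier3 4.56 ± 1.01. Dusp1, a phosphatase of stress kinases, lay between 0 and 5.46 CPM (median 2.02) in GMP, against 36.2, 33.6, 43 and 32.1 CPM in iPS cells, a log2 fold change of -4.13 ± 0.85 (adjusted p = 0.00386). Ier3 was 5.23 without iPS replicate 2.

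Among the 12 largest and 12 smallest log2 fold changes of genes whose groups did not overlap, some belonged to no list. Fut7, which makes the sugar by which leukocytes bind selectins, lay between 1.53 and 1355 CPM (median 32.8) in GMP with no count in iPS cells and was at least 3352-fold higher. Slow GMP replicate 1 stood highest, at 1355 CPM, and the fitted log2 fold change was 13.16 ± 2.83 with it and 11.14 without it, when the bound was 777-fold. On the other side, Igfbp2, a binding protein of insulin-like growth factors, lay between 0 and 6.38 CPM (median 0.797) in GMP, against 1635, 1207, 1669 and 2196 CPM in iPS cells, a log2 fold change of -9.73 ± 0.99 (adjusted p = 2.07e-05). Trh, which encodes thyrotropin-releasing hormone, lay between 0 and 7.91 CPM (median 0.825) in GMP, against 919.7, 1021, 1462 and 1207 CPM in iPS cells, a log2 fold change of -9.02 ± 0.95, and -9.70 without fast GMP replicate 1. Mdk, a heparin-binding growth factor, had -9.17 ± 0.87, Klhl13, an adaptor of a ubiquitin ligase, -9.53 ± 0.87, and Gsta4, a glutathione transferase, -8.96 ± 1.03. For these 5 genes no GMP library came near the lowest iPS library. Nanos3, known from germ cells, lay between 0 and 0.58 CPM (median 0) in GMP, against 146, 12.5, 55.1 and 8.47 CPM in iPS cells, a log2 fold change of -9.36 ± 1.21, and -8.28 without iPS replicate 1 and -11.30 without slow GMP replicate 3. The gene 1700029P11Rik had no count in GMP and was at least 134-fold lower, its iPS values being 10.8, 8.19, 23.3 and 51.1 CPM. The genes AU015836 and Gm949 had -9.19 ± 1.03 and -8.90 ± 0.96. Without fast GMP replicate 3 the values of AU015836 and Gsta4 were -11.80 and -9.65, without slow GMP replicate 2 that of Gm949 was -9.94, and without iPS replicate 4 the bound of 1700029P11Rik was 81.1-fold.

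The fast and slow gates were also set against the same 4 iPS libraries separately, and since both comparisons share those libraries, their values are given side by side only. With fast GMP, 951 genes were higher and 648 lower, and with slow GMP 1269 were higher and 1174 lower. Mpo was 13.73 with fast GMP and 13.21 with slow GMP, and Sfpi1 was 9.31 with fast GMP and 6.98 with slow GMP. Sox2 was -10.10 with fast GMP and -9.58 with slow GMP. Ccnd1 was -5.18 with fast GMP and -4.57 with slow GMP, and Ccnd2 was 4.17 with fast GMP and 2.85 with slow GMP. All 5 genes passed the threshold with either gate. Myb was 4.35 with fast GMP (adjusted p = 0.0168) and 1.33 with slow GMP (adjusted p = 0.205). Aurka was -1.79 with fast GMP (adjusted p = 0.069) and -3.45 with slow GMP (adjusted p = 0.00587). Trp53 was -2.15 with fast GMP (adjusted p = 0.0123) and -1.35 with slow GMP (adjusted p = 0.0867). The difference between the gates was not tested here.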

How the data were processed

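Per the labels, RNA came from 24 libraries of 6 cell types. The authors deposited whole-number counts of reads by gene, without normalization. The submitters' processing notes list CASAVA 1.8.2, TopHat2 2.0.4 and HTSeq beside the build mm9. Strand setting and annotation are not given in the sources used. Gene names are those of the file, and overlapping genes, antisense partners and near-identical copies cannot be told apart.

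Rn45s and Lars2 were left out, and the 8 GMP and 4 iPS libraries entered 1 fit without a block, with edgeR 4.0.16 in R 4.3.3 (TMM, filterByExpr, robust quasi-likelihood F test, two-sided, Benjamini-Hochberg over 11308 of 23281 genes, threshold 0.05). The standard error is the log2 fold change divided by the root of F. CPM use the TMM-scaled totals. A group with no count gets a floor of 3 counts over the group (0.174 CPM in GMP, 0.0634 CPM in iPS cells), and bounds cover counting error only, since amplified reads are not independent molecules. No 2 libraries of a class were identical (lowest chi-square per degree of freedom 55.3). The test was tried on simulated counts of 10753 genes, with 0 false calls among 10564 unchanged genes.

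The comparison, the 44 gene lists and the tests were chosen with earlier results of these data known, so list counts are descriptions and no test was made over a list. Of 883 list members, 870 matched a symbol in the file, 8 another symbol and 5 none. Genes were named by rule: 53 fixed genes, the 12 highest and 12 lowest log2 fold changes without overlap and with a mean of at least 20 CPM in the higher group, and per list up to 3 called members of smallest p in the leading direction, 1 in the other, and the uncalled member of highest mean CPM. These are 161 genes, of which 2 are not reported here, nor is 1 agent of the GMP medium; any other was picked once its values were known. Promoter windows are RefSeq sequences of GRCm38.p6, whose coordinates are not those of mm9.

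Alternatives were DESeq2 size factors, upper-quartile and TMMwsp scaling, Rn45s and Lars2 kept, no filter or a stricter one (5 CPM in 4 libraries), DESeq2 1.42.0, voom with quality weights (limma 3.58.1), 3 groups or all 24 libraries in the fit, a replicate block, fast or slow GMP alone, thinned counts and each library left out. Fits without 2 GMP libraries of high Rn45s and Lars2 share and without 3 GMP libraries of low correlation were added after the data were seen.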

Additional observations from a re-analysis of the deposited data

Results flagged for a closer look

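Each of 159 named genes was looked at within the 8 GMP libraries and within the 4 iPS libraries, 318 groups of values on log2(CPM + 1), for a highest or lowest library whose gap to its neighbour is large against the whole range (Dixon's critical values). It found 40. Chance alone marks about 1 in 20 groups only where values are continuous and normally distributed. Where only 1 library of a group holds any count, its gap equals the whole range, so it is marked however small that count. Many of the 40 are of this kind, so the rate of 1 in 20 gives no expected number to set against the 40. Values below are CPM, and no cause was tested.

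Fast GMP replicate 1 was the highest GMP library for Tdgf1 at 9.63 CPM (others 0 to 1.74), Tdh at 32.7 CPM (others 0 to 3.48), Perp at 1.72 CPM (others at 0), Nid1 at 13.4 CPM (others 1.09 to 2.77) and Rpl39l at 1.38 CPM (others at 0). Fast GMP replicate 2 was the highest GMP library for Spry1 at 1.81 CPM (others at 0). Fast GMP replicate 3 was the highest GMP library for AU015836 at 0.806 CPM (others at 0). Fast GMP replicate 3 was the lowest GMP library for Ahcy at 59.6 CPM (others 119 to 209.9). Fast GMP replicate 4 was the highest GMP library for Ccnd3 at 1497 CPM (others 143 to 421), Mcm5 at 5932 CPM (others 175 to 785) and Ctsh at 153 CPM (others 20.3 to 36). Fast GMP replicate 5 was the highest GMP library for Irf8 at 1193 CPM (others 56.1 to 197) and Myb at 366 CPM (others 10.4 to 53). Fast GMP replicate 5 was the lowest GMP library for Ccne1 at 4.61 CPM (others 92.8 to 606) and Cst7 at 5.54 CPM (others 60.3 to 373). Slow GMP replicate 1 was the highest GMP library for H19 at 125 CPM (others 0.512 to 4.61). Slow GMP replicate 1 was the lowest GMP library for Ncf4 at 8.47 CPM (others 39.4 to 121). Slow GMP replicate 2 was the highest GMP library for Gfi1 at 62.2 CPM (others 1.85 to 10.9) and Phlda2 at 0.364 CPM (others at 0). Slow GMP replicate 3 was the highest GMP library for Pou5f1 at 4.64 CPM (others 0 to 1.21), Nanos3 at 0.58 CPM (others at 0) and Sparc at 758 CPM (others 45.1 to 98.7). Slow GMP replicate 3 was the lowest GMP library for Il6st at 3.48 CPM (others 20.6 to 33.9).

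iPS replicate 1 was the iPS library with a count, the other 3 being at 0, for Cdkn2c at 3.07 CPM. iPS replicate 1 was also the highest of the 4 for Runx1 at 7.61 CPM (others 0.956 to 1.12), Spry1 at 6.63 CPM (others 3.77 to 4.1) and Max at 411 CPM (others 185 to 200.1). iPS replicate 2 was the iPS library with a count, the other 3 being at 0, for Elane at 0.279 CPM and Flt3 at 0.372 CPM. iPS replicate 3 was the iPS library with a count, the other 3 being at 0, for Ctsg at 0.0531 CPM, Gfi1 at 0.956 CPM, Ptprc at 0.106 CPM, H2-Aa at 0.159 CPM, Lyz2 at 0.425 CPM and F13a1 at 0.0531 CPM. iPS replicate 3 was also the highest of the 4 for Dsp at 100.1 CPM (others 16.5 to 22.5). iPS replicate 4 was the iPS library with a count, the other 3 being at 0, for Lyl1 at 0.0864 CPM, Csf2rb2 at 0.0864 CPM and Cox4i2 at 0.173 CPM. iPS replicate 4 was also the highest of the 4 for Csf3r at 3.97 CPM (others 0.186 to 0.324). Values under 1 CPM in an iPS library rest on few reads.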

How the results depend on the processing

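Counts of calls were highest with all 24 libraries in the fit and by voom, and lowest without an iPS library. Against 1775 genes called, 1111 higher and 664 lower, DESeq2 called 3199 (2030 higher and 1169 lower), voom with quality weights 4275 (1777 higher and 2498 lower) and a fit of all 24 libraries 4341 (2318 higher and 2023 lower). Slow GMP alone gave 1174 lower, and leaving out the 3 GMP libraries of low correlation 1034 lower. Leaving out 1 library gave 928 to 1965 called, 520 to 1217 higher and 397 to 809 lower, with 928 to 947 called without an iPS library. The other settings stayed within 1.5 times of each count. The cause of these differences was not tested. Of 113 named genes past the threshold, 23 missed it without at least 1 library and 9 with no filter on low counts. Conversely, named genes that had missed it passed it in the same direction under other tests. These were 13 by DESeq2, 18 by voom and 13 with all 24 libraries in the fit.

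Samples share only replicate numbers: the correlation of deviations between same-numbered libraries was -0.052 to 0.044. A fit with the number as a block called 1706 genes, 884 higher and 822 lower, and 5 of the 113 named genes missed the threshold in it.

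No named gene past the threshold turned its direction under any of the 28 settings that gave it a value, which were 18 for Cdkn1b, 26 for Spry1, 27 for Bcl2 and 28 for the others. The sign of the log2 fold change of 10 named genes that had missed it did turn. Lifr, at -0.051, was 0.087 with DESeq2 size factors, 0.041 with upper-quartile factors, 0.031 with the stricter filter, 0.091 by DESeq2, 0.25 with slow GMP alone and -0.62 to 0.15 when 1 library was left out. Mki67, at 0.13, was -0.094 with no filter, -0.033 by voom, -0.020 with all 24 libraries in the fit, -0.096 without 2 GMP libraries of high Rn45s and Lars2 share and -0.080 to 0.28 when 1 library was left out. Mcm5, at 0.20, was -0.019 with no filter, -1.10 by DESeq2, -0.93 by voom, -0.48 with 3 groups, -0.57 with all 24 libraries in the fit, -0.88 with the replicate block, -1.50 with slow GMP alone and -1.30 to 0.40 when 1 library was left out. Rps2, at 0.082, was -0.15 with no filter, -0.18 by voom, -0.077 with 3 groups, -0.19 with all 24 libraries in the fit, -0.21 with the replicate block, -0.23 with slow GMP alone and -0.19 to 0.25 when 1 library was left out. Kit, at 0.77, was -0.79 by DESeq2, -1.04 by voom, -0.0041 with all 24 libraries in the fit, -1.72 with the replicate block, -0.89 with slow GMP alone and -0.98 to 0.97 when 1 library was left out. Bcl2l1, at 0.42, was -0.65 by voom, -0.13 with 3 groups, -0.24 with all 24 libraries in the fit, -0.99 with slow GMP alone and -0.36 to 0.64 when 1 library was left out. Pkm2, at 0.29, was -0.087 with all 24 libraries in the fit, -0.38 with slow GMP alone and -0.012 to 0.45 when 1 library was left out. Ccnd3, at -0.12, was 0.32 with fast GMP alone, 0.077 on thinned counts, 0.11 without 2 GMP libraries of high Rn45s and Lars2 share, 0.30 without 3 GMP libraries of low correlation and -0.79 to 0.053 when 1 library was left out. Max, at -0.15, was 0.15 with slow GMP alone, 0.21 without 3 GMP libraries of low correlation and -0.48 to 0.14 when 1 library was left out. Smarca4, at -0.37, was 0.090 without 3 GMP libraries of low correlation and -0.60 to -0.18 when 1 library was left out.

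The smallest called difference was 1.29 on the log2 scale, and with counts thinned to the smallest library 1652 genes were called. What sets that limit was not tested.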
